A study of Rattus norvegicus with 18 samples.

Results

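RNA-seq was compared between miR-337 knockout (KO) MSCs labelled FBS and KO MSCs labelled serum starvation (SSt), with 3 libraries per group. MSCs are the bone marrow stromal cells that adhere in culture and can give rise to bone, fat and cartilage cells. They came from the bone marrow of 2-month-old SD (Sprague-Dawley) rats of genotype miR-337-/- and were grown to passage 3. All cells were starved of serum for 8 h, after which the FBS group was given fetal bovine serum for 24 h according to the labels, while the SSt group was not. The study's methods state a shorter treatment. Both groups thus share the deletion and the starvation. In addition, 3 KO libraries of stretched cells (10% CMS, also after starvation) shared the filter, the scaling and the estimate of the spread. Their correlations with the other KO libraries are given below. WT SSt and WT FBS libraries, 3 each, came from rats without the deletion. They were used only to ask where the response of KO cells differed and to check labels. In the fit of that difference 3 WT libraries of stretched cells (10% CMS) also shared the filter, the scaling and the spread. Nothing says that the 3 libraries of a group are separate animals or cultures, so the p-values reflect only how far these libraries vary, which may be technical. Of the 32623 genes listed, 12888 reached 1 FPKM in 3 or more of the 9 KO libraries and were tested. FPKM is the fragment count of a gene scaled to transcript length and library size. At that limit P2rx5 lay just inside with a third-highest value of 1.0002 FPKM and Llgl2 just outside with 0.9998 FPKM.

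Serum supplies growth factors, attachment factors and lipoproteins, and cells without it usually leave the cell cycle. Growth factors act through receptor tyrosine kinases on the ERK and PI3K-Akt-mTOR pathways, which raise immediate early genes, cyclins and ribosome production. Cholesterol taken up from lipoproteins holds back SREBP2, the transcription factor of the sterol synthesis genes, while lysophospholipids and attachment act on the actin-dependent factors SRF and YAP. The microRNA that the KO cells lack binds mRNAs through its seed, bases 2 to 8 of the mature strand, shown here in capitals to identify what was deleted. The 2 mature strands, from RefSeq on build GRCr8 (chromosome 6, plus strand, bases 134321170 to 134321190 and 134321201 to 134321223), read as follows.

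rno-miR-337-5p: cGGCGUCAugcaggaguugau

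rno-miR-337-3p: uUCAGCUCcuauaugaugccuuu

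Mir337, the gene of the deleted microRNA, had a count of 0 in all 6 libraries and in the 6 SSt and FBS libraries of WT, so these counts do not check the deletion. Depth was 60.16 to 64.42 M counts per library in KO SSt and 56.08 to 63.71 M in KO FBS. KO FBS replicate 1 stood apart. Of 9261 genes with a value of at least 5 FPKM in any FBS library, 95 were over 2-fold above both other FBS libraries in replicate 1 and 105 over 2-fold below both, on FPKM + 1. The same counts were 9 and 20 for replicate 2, and 13 and 18 for replicate 3. Across the tested genes, which are not independent and share library depth, the correlation of log2(CPM + 1) was 0.991 between FBS replicates 2 and 3, and 0.981 and 0.977 between either and replicate 1. With the 3 CMS libraries replicate 1 correlated at 0.980 to 0.983 and replicates 2 and 3 at 0.970 to 0.979. Every result was therefore also fitted without FBS replicate 1. The value from that fit is printed for most genes whose pass or call changed or whose fold moved by over 1.5 times. It also stands beside the counts of most lists.

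The labelled cell type was checked against markers. Lepr, the leptin receptor by which the study defines these MSCs, was at or below 0.0263 FPKM in all 6 libraries and was not tested. Of 15 tested MSC and stromal markers 6 were higher and 7 lower in FBS at an adjusted p below 0.05 (the test is given below), and 5 and 7 without replicate 1. Of all tested genes 30.3% were higher and 29.5% lower at that limit. The surface marker Thy1 was among the lower markers, at 652 to 684 FPKM in SSt and 448 to 517 FPKM in FBS. Pdgfra and Vcam1, described below, were among the higher. All 20 markers of macrophages and blood cells had counts, and their summed level was 3173 to 3283 FPKM in SSt and 5715 to 6832 FPKM in FBS. Of 10 lymphocyte markers, 8, the CD3 genes among them, were at 0 in all 6 libraries. The summed level of the neutrophil list was 1.55 to 3.27 FPKM, with S100a9, Mpo and Ltf at 0.

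The labels were also checked against genes that serum is known to move. Libraries labelled FBS had lower values for all 71 tested cell cycle genes and for 10 of 11 smooth muscle genes, and higher values for all 25 sterol genes, directions that in the background above belong to cells without serum. Immediate early genes went both ways (17 of 31 lower, 9 higher), and of 26 YAP genes 14 were lower and 11 did not pass. By their correlation across all tested genes, the libraries labelled FBS were nearer to the stretched CMS libraries (0.970 to 0.983) than those labelled SSt were (0.903 to 0.913). In WT, list medians of the log2 ratio of FPKM (FBS over SSt) had the same signs. They were -0.79 for mitosis, -0.88 for licensing, -0.62 for DNA synthesis, -1.05 for smooth muscle and 1.65 for sterol genes. The study reports that giving serum back activated starved MSCs in culture. The groups are called by their labels throughout, and every direction below rests on them. An exchange of labels was not tested beyond these values.

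Between FBS and SSt, 1221 genes were called higher (9.47% of 12888) and 988 lower (7.67%) by edgeR's quasi-likelihood test, with a Benjamini-Hochberg adjusted p below 0.05 and a change of 2-fold or more. All adjusted p-values below come from this test, and values in parentheses after a gene are log2 fold changes of FBS over SSt. Without FBS replicate 1, 1191 (9.24%) and 957 (7.43%) were called, and 1988 genes were called in the same direction in both fits. Whatever the fold, 3904 genes were higher (30.3%) and 3802 lower (29.5%) at that adjusted p, 59.8% in all and 59.0% without FBS replicate 1. The FPKM of the 2 groups did not overlap for 3846 genes higher in FBS (29.8%) and 4797 lower (37.2%). These shares are the background for the counts in gene lists that follow, and the median log2 fold change of all tested genes was 0.016.

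Among the leading genes higher in FBS was Pla2g2a. This gene of a secreted phospholipase A2 was at 15.9, 8.14 and 6.68 FPKM in SSt and at 652, 425 and 422 FPKM in FBS, a log2 fold change of 5.67 (SE 0.376, adjusted p = 3.77e-06). Cx3cl1, a chemokine tethered to the cell surface, was at 0.175 to 0.299 FPKM in SSt and 8.01 to 14.2 FPKM in FBS (5.57, SE 0.353, adjusted p = 2.94e-06). For both genes FBS replicate 1 was the highest FBS library, and without it Pla2g2a measured 5.41 and Cx3cl1 5.26. For others FBS replicate 1 lay well above the other two. Nos2, the inducible nitric oxide synthase, was at 4.68, 2.87 and 2.72 FPKM in SSt and at 239, 22 and 11.8 FPKM in FBS. Its log2 fold change of 4.82 (SE 1.15, adjusted p = 0.00602) was 2.34 without that library (adjusted p = 0.00284). Serpinb2, a plasminogen activator inhibitor of stressed cells, was at 1.75, 0.966 and 1.04 FPKM in SSt and at 79.7, 6.58 and 2.82 FPKM in FBS, and its log2 fold change went from 4.66 (adjusted p = 0.0126) to 1.95 without it (adjusted p = 0.0334). Lcn2, a siderophore-binding protein, was at 11.8, 5.06 and 4.02 FPKM in SSt and at 357, 117 and 92.0 FPKM in FBS and measured 4.84 with it and 3.95 without it.

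Among the leading genes lower in FBS, Selp, P-selectin, was at 12.7 to 13.2 FPKM in SSt and 0.119 to 0.171 FPKM in FBS (-6.41, SE 0.312, adjusted p = 7.61e-07). Tnc, the matrix protein tenascin C, was at 770.2, 675 and 654 FPKM in SSt and at 37.0, 49.9 and 47.9 FPKM in FBS (-3.90, SE 0.195, adjusted p = 8.57e-07). Id1, an inhibitor of differentiation factors and a target of BMP signalling, was at 46.3 to 47.4 FPKM in SSt and 2.89 to 4.08 FPKM in FBS (-3.68, SE 0.122, adjusted p = 1.53e-07). The G-protein regulator Rgs16 (-4.16), the integrin subunit Itga8 (-3.90), the LIM protein Lmcd1 (-5.49), the muscle protein Klhl41 (-3.74) and the neurite factor Nrn1 (-3.74) were called as well. The gene with the largest fitted lowering among these leading genes, Gm47305, rested on 1 SSt library and was at 2.16, 2155 and 4.71 FPKM in SSt and at 0.183, 0.177 and 0.195 FPKM in FBS (-11.37, adjusted p = 0.0423), and it passed neither without that library, SSt replicate 2 (-3.72, adjusted p = 0.401), nor without FBS replicate 1 (adjusted p = 0.0900).

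**Figure D1:**
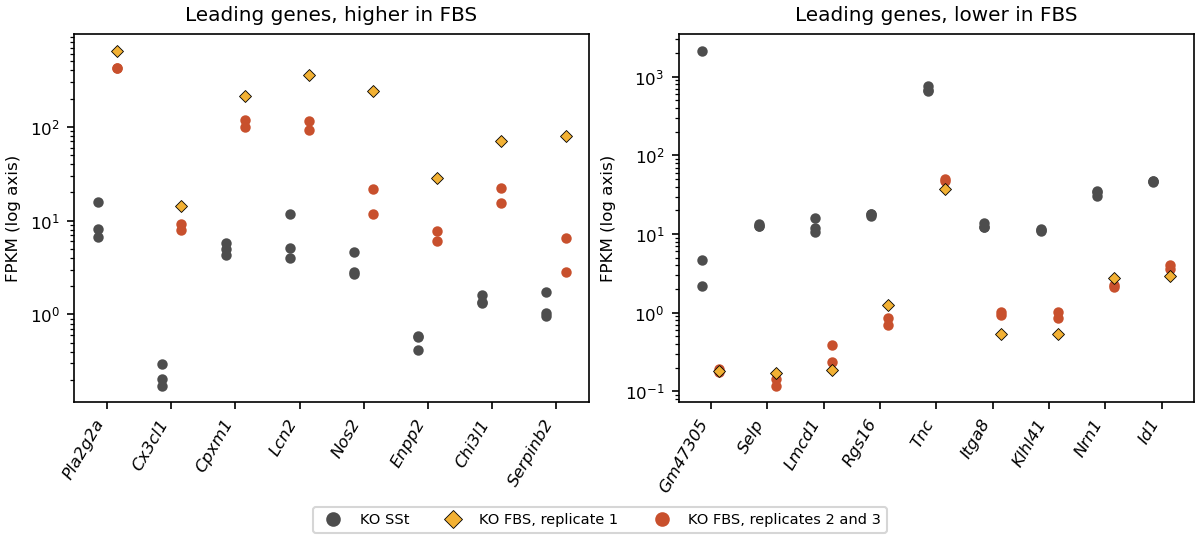
FPKM on a log axis in each KO library for leading named genes that were higher (left) or lower (right) in FBS; circles are single libraries and the diamond is FBS replicate 1. In the left panel the diamond for Nos2 (239 FPKM) and Serpinb2 stands above the other FBS libraries, and in the right panel the one for Id1 lies near them (2.89 to 4.08 FPKM). For Gm47305 a single SSt library stands far above all others.

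Genes that run the cell cycle were lower in the libraries labelled FBS, without exception in 3 lists. All 19 genes of replication licensing, 23 of DNA synthesis and 29 of mitosis passed the adjusted p toward lower values, and 70 of these 71 at a fold of 2. Without FBS replicate 1 all 71 passed and 66 did so at a fold of 2. The median log2 fold change was -1.91, -1.59 and -2.39 for the 3 lists, and -1.66, -1.43 and -2.07 without replicate 1. In each of the 71 genes replicate 1 was the lowest FBS library.

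Mki67, the proliferation antigen, was at 37.3, 44.2 and 44.7 FPKM in SSt and at 5.06, 14.8 and 17.1 FPKM in FBS (-1.72, SE 0.369, adjusted p = 0.00334). Without replicate 1 it measured -1.36 (adjusted p = 0.000113). Cdk1, the kinase that starts mitosis, was at 88.9 to 92.6 FPKM in SSt and at 7.43, 15.1 and 18.7 FPKM in FBS (-2.67, adjusted p = 7.47e-05). Anln, which builds the cleavage furrow, was at 61.4 to 72.2 FPKM in SSt and at 4.21, 9.05 and 8.61 FPKM in FBS and fell most in the mitosis list (-3.15, SE 0.254, adjusted p = 1.17e-05). The groups did not overlap for any of the 71 genes.

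Promoters of the mitosis genes often hold the letters of the CHR, the element bound by cell cycle repressor complexes. TTTGAA, searched on both strands from 250 bases before to 50 after the start, was found for 18 of 25 mitosis genes with a promoter in RefSeq (72.0%) and for 19.4% of all 27457 genes. The 3 mitosis genes with the largest change and a match upstream are shown with the letters in capitals, on build GRCr8. A match is a description of letters, not of binding.

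Anln (chr8:29197520-29197549, minus strand): tgaaattcaaatTTTGAAcggccgtggtag

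Cdk1 (chr20:19265263-19265292, plus strand): tttaccgcggtgagTTTGAAactgctggca

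Prc1 (chr1:143659451-143659480, plus strand): cctccggctcggTTTGAAttccgcggggtc

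Of 22 cyclin, E2F and CDK inhibitor genes 14 were lower and 6 higher, 8 and 3 at a fold of 2 (13 and 7, 8 and 3 without replicate 1). Ccnd1, the growth factor-dependent cyclin, was at 126 to 136 FPKM in SSt and 30.5 to 47.3 FPKM in FBS (-1.60, adjusted p = 1.94e-05). The inhibitor Cdkn2b was at 1.12 to 1.52 FPKM in SSt and at 8.68, 3.89 and 4.41 FPKM in FBS, highest in replicate 1 (2.11, adjusted p = 0.000328). Cdkn1a, p21, rose by less than 2-fold (0.35, adjusted p = 0.00642).

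Genes of ribosome production were lower too. Of 25 genes of ribosome biogenesis 23 were lower and none higher at the adjusted p, 8 at a fold of 2, with a median of -0.76 with or without replicate 1. Ncl, nucleolin, was at 312 to 335 FPKM in SSt and 152 to 166 FPKM in FBS (-1.0, SE 0.0469, adjusted p = 6.62e-07). The snoRNP proteins Nop58 (-1.26) and Fbl (-1.05) were called.

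Smooth muscle genes were mostly lower in FBS, and YAP and immediate early genes were more often lower than higher. Of 11 smooth muscle genes, which answer to SRF, 10 were lower, all at a fold of 2, with a median of -1.73 (-1.63 without replicate 1). Tagln, an actin-binding protein, was at 434, 480.3 and 492 FPKM in SSt and at 94.4, 121 and 119 FPKM in FBS (-2.01, SE 0.0874, adjusted p = 5.00e-07). Acta2, smooth muscle actin, was at 49.7 to 70.2 FPKM in SSt and 13.3 to 21.2 FPKM in FBS (-1.68, adjusted p = 4.65e-05).

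Of 26 genes of YAP and TEAD with their targets 14 were lower and 1 higher in both fits, and 6 and 0 at a fold of 2 (4 and 0 without replicate 1). Ccn1, a matrix protein and YAP target, was at 229 to 242 FPKM in SSt and 28.8 to 32.2 FPKM in FBS (-2.87, SE 0.0911, adjusted p = 1.22e-07). F3, tissue factor, was at 169 to 178 FPKM in SSt and 19.9 to 20.6 FPKM in FBS (-3.03, adjusted p = 1.91e-08). Ccn2, another YAP target, was at 256, 283 and 289 FPKM in SSt and at 76.2, 176 and 214 FPKM in FBS, lowest in replicate 1. It did not pass (-0.78, adjusted p = 0.0623), though it did with DESeq2 (adjusted p = 0.0416) and without FBS replicate 3 (-1.07, adjusted p = 0.0237). With only replicate 1 left out it did not pass either. Without replicate 1 and the CMS libraries, an alternative chosen after seeing the data, Ccn2 measured -0.46 (adjusted p = 0.00421). Yap1 itself was lower by less than 2-fold (-0.52, adjusted p = 0.00126).

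Among 31 immediate early and ERK feedback genes 17 were lower and 9 higher, 8 and 5 at a fold of 2 (18 and 8, 7 and 5 without replicate 1). Nr4a1, an orphan receptor induced within minutes of stimulation, was at 15 to 17.5 FPKM in SSt and 1.11 to 1.70 FPKM in FBS (-3.55, SE 0.208, adjusted p = 1.98e-06). Others went the opposite way. Klf4, a zinc finger factor of growth arrest, was at 27.8 to 28.8 FPKM in SSt and 105 to 110.3 FPKM in FBS (1.98, adjusted p = 7.76e-08). Egr2 (2.17) and the stress factor Atf3 (2.48) were called higher. In the list of BMP, TGF-beta and ID genes 13 of 27 were lower and 8 higher in both fits, with Id3 (-2.92) and the activin subunit Inhba (-3.56) among those called lower.

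Genes of cholesterol and fatty acid synthesis were higher in FBS. All 25 tested genes of sterol synthesis and SREBP2 targets passed toward higher values, 20 at a fold of 2, with a median of 1.59. Without FBS replicate 1 all 25 passed, 21 at a fold of 2, with a median of 1.69. Insig1, the sensor that retains SREBP in the ER, was at 35.9, 32.2 and 33.4 FPKM in SSt and at 147, 148 and 151 FPKM in FBS (2.20, SE 0.0633, adjusted p = 1.01e-07). Lss, lanosterol synthase, was at 16.1 to 16.9 FPKM in SSt and 72.0 to 87.5 FPKM in FBS (2.33, adjusted p = 8.93e-08). A 9-letter SREBP element, TCACCCCAC on either strand, was in 0 of 17 sterol promoters in RefSeq and in 0.532% of all, which says only that these letters are not in this window.

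Of 14 fatty acid synthesis genes 13 were higher and none lower, 7 at a fold of 2, in both fits. Acss2, which makes acetyl-CoA from acetate, was at 5.49 to 6.45 FPKM in SSt and 45.5 to 63.5 FPKM in FBS (3.31, SE 0.130, adjusted p = 3.10e-07). Scd, a fatty acid desaturase, was at 8.59 to 9.34 FPKM in SSt and 49.4 to 75.4 FPKM in FBS (2.95, adjusted p = 7.67e-07). Genes of cholesterol efflux were higher as well, 10 of 10 in both fits, with Apoe, the lipoprotein of cholesterol export, at 44.7 to 49.7 FPKM in SSt and 127 to 133 FPKM in FBS (1.53, adjusted p = 2.37e-07). In fatty acid oxidation 9 of 13 were higher, 2 of them, Angptl4 and Cpt1a, at a fold of 2.

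Most lysosomal and FOXO target genes were higher. Of 26 lysosome genes 25 passed toward higher values and 7 at a fold of 2 in both fits, with a median of 0.81. Ctsd, the protease cathepsin D, was at 743 to 761 FPKM in SSt and 1385 to 1679 FPKM in FBS (1.11, adjusted p = 1.38e-06). Of 23 FOXO and starvation-response genes 15 were higher and 1 lower (16 and 2 without replicate 1). Klf15, a factor of fasting metabolism, was at 1.18 to 1.55 FPKM in SSt and at 15.3, 9 and 7.58 FPKM in FBS, highest in replicate 1 (2.97, adjusted p = 3.64e-05).

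The core genes of insulin and PI3K-Akt-mTOR signalling, the pathway through which the study links miR-337 to proliferation, were looked at next. Of 28 genes 13 were higher and 7 lower at the adjusted p, beside 30.3% and 29.5% of all tested genes, and 3 passed at a fold of 2, beside 17.1% of all, with a median of 0.14 (0.07 without replicate 1). Irs1, the insulin receptor substrate that the study names as the target of miR-337, was at 2.17, 2.92 and 2.77 FPKM in SSt and at 1.69, 1.65 and 2.11 FPKM in FBS. The log2 fold change of Irs1 was -0.47 (SE 0.133, adjusted p = 0.0139), and -0.44 without replicate 1 (adjusted p = 0.0345). Akt1, the most abundant Akt kinase, was at 129 to 133 FPKM in SSt and 90.3 to 92.9 FPKM in FBS (-0.45, SE 0.0363, adjusted p = 1.12e-05). Mtor was lower (-0.31, adjusted p = 0.00205). Akt2 was slightly higher (0.18, adjusted p = 0.0229), a pass lost when any 1 SSt library was left out, and Irs2 did not pass (0.11, adjusted p = 0.413). The 3 genes past a fold of 2 were Pik3cb, a catalytic PI3K subunit (1.42), the mTOR inhibitor Deptor (1.05) and the regulatory subunit Pik3r3 (-1.07). These are mRNA levels and do not measure phosphorylation.

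Upstream of these pathways, of 22 secreted growth factors 10 were lower and 8 higher, 8 and 6 at a fold of 2 (12 and 8, 10 and 5 without replicate 1). Hbegf, a ligand of the EGF receptor, was at 31.4 to 34.6 FPKM in SSt and 1.96 to 3.16 FPKM in FBS (-3.51, SE 0.157, adjusted p = 5.55e-07). Angpt1, a ligand of the Tie2 receptor, was at 6.18 to 8.93 FPKM in SSt and at 55.1, 31.9 and 27.0 FPKM in FBS, highest in replicate 1 (2.44, adjusted p = 9.09e-05). Among 18 receptor tyrosine kinases 7 were lower and 6 higher in both fits. Of all tested genes 29.5% were lower and 30.3% higher. Pdgfra, the receptor of PDGF and a stromal marker, was at 37.2 to 38 FPKM in SSt and 138 to 148 FPKM in FBS (2.01, SE 0.0633, adjusted p = 1.22e-07). Fgfr1 was lower by less than 2-fold (-0.59, adjusted p = 1.55e-05).

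Genes of the NF-kB list were higher in FBS, and the size and count of inflammatory changes depended on FBS replicate 1. Of 20 NF-kB subunit and feedback genes 18 were higher and none lower, 13 at a fold of 2, with a median of 1.13. Without replicate 1 these were 16, 0, 8 and 0.88. Of 35 cytokines and chemokines 13 were higher and 4 lower with it, and 8 higher and 9 lower without it. The median of the list was 0.61 with it and 0.24 without it.

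Il1b, interleukin 1 beta, was at 25.6, 20.2 and 19.3 FPKM in SSt and at 329, 54.9 and 33.6 FPKM in FBS (2.77, SE 0.854, adjusted p = 0.0204). Without replicate 1 it did not pass (1.07, adjusted p = 0.0731), nor with any 1 SSt library left out (adjusted p = 0.051 to 0.0646). Il1a was at 39.1 to 53 FPKM in SSt and at 62.5, 9.49 and 5.28 FPKM in FBS. It did not pass with replicate 1 (-0.70, adjusted p = 0.504) and was called lower without it (-2.54, adjusted p = 0.00343). The FBS libraries of Il1a thus lay on both sides of SSt. Ptgs2, the inducible prostaglandin synthase, was called lower without it as well (-1.43, adjusted p = 0.000933) and did not pass with it (-0.84, adjusted p = 0.0787). Ccl3, a macrophage chemokine, was at 14.5 to 19.9 FPKM in SSt and at 507, 119 and 84.8 FPKM in FBS and passed (3.94, adjusted p = 0.00156), also without replicate 1 (2.67, adjusted p = 0.000390). Il33, an alarmin, was at 39.7 to 47.0 FPKM in SSt and 3.28 to 4.05 FPKM in FBS, alike in all 3 (-3.47, adjusted p = 1.47e-06).

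Of 17 genes that interferon induces 15 were higher and 1 lower, 12 higher at a fold of 2, in both fits, with a median of 1.36 and 1.29. Ifit2, which blocks translation of viral RNA, was at 2.10 to 2.65 FPKM in SSt and 13.8 to 14.2 FPKM in FBS (2.59, SE 0.0998, adjusted p = 2.87e-07). Of 13 complement genes 9 were higher and 3 lower (10 and 3 without replicate 1). C1s, a protease of the classical pathway, was at 68.7 to 76.3 FPKM in SSt and 284 to 351 FPKM in FBS (2.17, adjusted p = 7.10e-07), and its inhibitor Serping1 rose as well (3.99, adjusted p = 1.11e-06). Of 9 acute phase genes 7 were higher in both fits, with a median of 3.36 that was 2.24 without replicate 1. Of 16 antigen presentation genes 9 were higher (11 without replicate 1), with the shared MHC class I chain B2m among them (0.79, adjusted p = 5.72e-05).

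Promoters of these lists held the letters of their factors more often than all promoters did, as a description. GGNNTTTCC on either strand was found for 9 of 17 NF-kB list genes (52.9%) and 6.48% of all, and GAAANNGAA for 8 of 12 interferon-stimulated genes (66.7%) and 10.3% of all. The called genes with the largest changes and a match upstream of the start are shown with the match in capitals, the first pair from the NF-kB list and the second pair from the interferon list. Tnfaip3, an inhibitor of NF-kB, was called with FBS replicate 1 (1.60, adjusted p = 0.00651), and its fold was under 2 without it (0.998, adjusted p = 0.00567). Ifit3 was at 0.111 to 0.174 FPKM in SSt and at 3.86, 1.20 and 0.780 FPKM in FBS, so that replicate 1 was again the highest.

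Vcam1 (chr2:206742857-206742886, minus strand): tccccttgaaGGGATTTCCctccgcctctc

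Tnfaip3 (chr1:15544015-15544044, minus strand): aaagtccctcGGAAATCCCcctgtggcgaa

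Ifit3 (chr1:241527292-241527321, plus strand): tagtttccacTTCCCTTTCacaaacgtgag

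Gbp5 (chr2:233910934-233910963, plus strand): cttgtgtagtTTCAATTTCagtttagaggt

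Macrophage and blood markers were mostly higher in FBS. Of 19 tested 13 were higher and 3 lower, and 15 and 3 without replicate 1, with a median of 0.77 and 0.83. By library, their median log2((FPKM + 1) / (mean SSt FPKM + 1)) was 0.705, 0.795 and 0.757 in FBS replicates 1, 2 and 3, values near each other. Single markers differed in both directions. Cd53 was at 307.1 FPKM in FBS replicate 1 and at 228 and 190.7 FPKM in replicates 2 and 3. Cd74 was at 141.5 FPKM in replicate 1 and at 441.2 and 485 FPKM in replicates 2 and 3. Lyz2, lysozyme, was at 1481 to 1580.0 FPKM in SSt and at 2474, 3598 and 3618 FPKM in FBS (1.15, SE 0.12, adjusted p = 5.44e-05). Adgre1, the F4/80 antigen, was at 2.84 to 3.20 FPKM in SSt and at 124, 34.5 and 30.9 FPKM in FBS (4.49, adjusted p = 0.000155), and measured 3.5 without replicate 1 (adjusted p = 4.47e-07). The part of these cells in the results was not tested, and in bulk RNA a different number of cells of a type and a different amount of RNA per cell cannot be told apart.

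**Figure D2:**
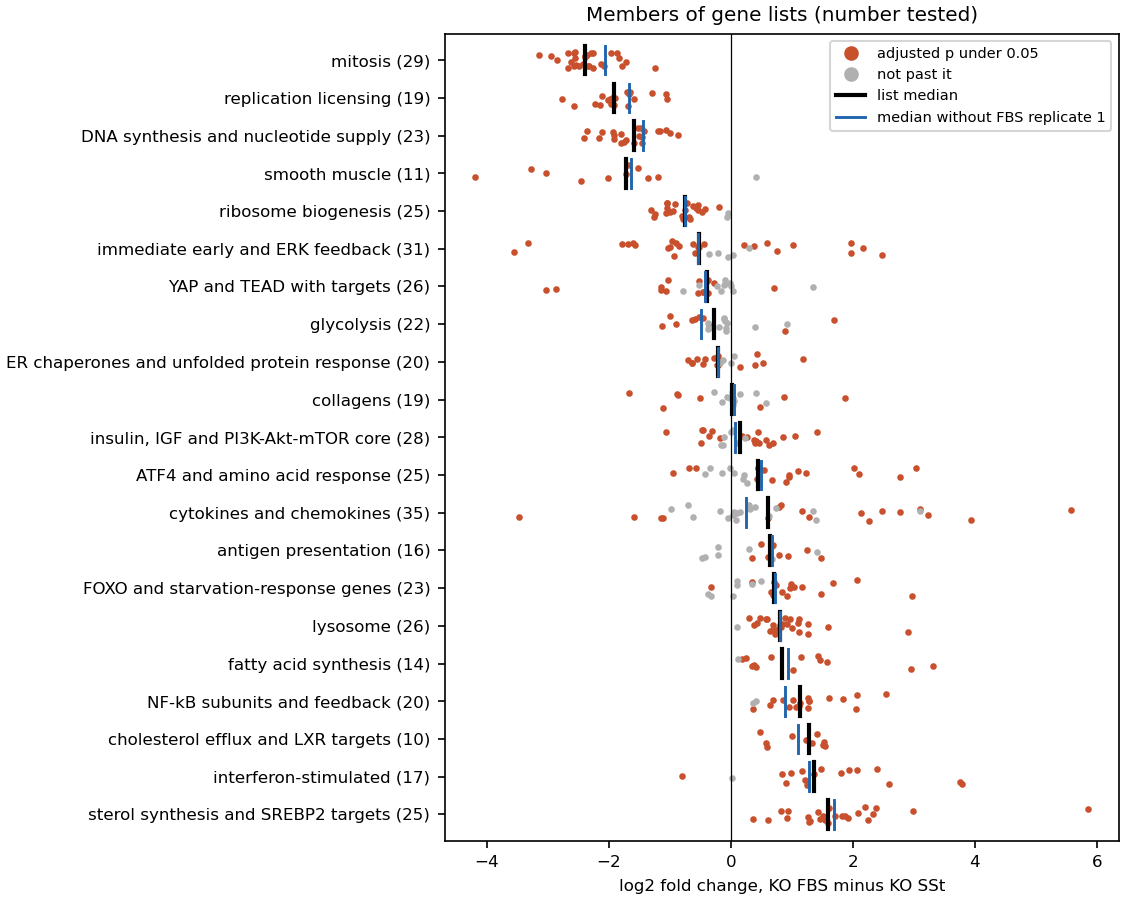
Log2 fold change of KO FBS over KO SSt for each tested member of 21 gene lists, coloured where the edgeR adjusted p was under 0.05, with the list median in black and the median without FBS replicate 1 in blue. Mitosis genes lie on the left (median -2.39) and sterol genes on the right (median 1.59).

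Matrix and adhesion genes changed in both directions. Fn1, fibronectin, was at 3515 to 3638 FPKM in SSt and 4071 to 5106 FPKM in FBS (0.38, adjusted p = 0.00477). Thbs1, thrombospondin 1, was at 2707 to 2780.0 FPKM in SSt and 519.6 to 687 FPKM in FBS (-2.13, SE 0.115, adjusted p = 1.23e-06). Has2, hyaluronan synthase, was at 98.7 to 108 FPKM in SSt and 8.07 to 10.3 FPKM in FBS (-3.48, adjusted p = 1.23e-06). In all, 11 of 27 matrix glycoprotein genes were higher and 10 lower (12 and 11 without replicate 1), beside 30.3% and 29.5% of all tested genes. Among 19 collagens 3 were higher and 5 lower (5 and 7 without it), and Col1a1, the main bone collagen, did not pass at 1694 to 1833 FPKM in SSt and 1481 to 2297 FPKM in FBS (0.15, adjusted p = 0.428).

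Of 23 matrix proteases and inhibitors 15 were higher and 5 lower (15 and 7 without replicate 1). Mmp13, collagenase 3, was at 18.3, 12.6 and 10.8 FPKM in SSt and at 300.0, 77.9 and 48.0 FPKM in FBS (3.43, adjusted p = 0.00279), and measured 2.22 without replicate 1 (adjusted p = 0.00136). Timp3, an inhibitor of such proteases, was at 0.371 to 0.566 FPKM in SSt and 6.63 to 7.24 FPKM in FBS (3.94, adjusted p = 9.31e-07). Of 17 integrins 9 were lower and 4 higher (10 and 4 without replicate 1), with the main subunit Itgb1 at 482 to 486 FPKM in SSt and 253 to 269 FPKM in FBS (-0.83, adjusted p = 1.0e-06).

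Few lineage markers were tested. Of 4 adipocyte genes 3 were higher and 1 lower in both fits. Fabp4, a fatty acid carrier, was at 10.8, 11.9 and 12.8 FPKM in SSt and at 40.4, 249 and 208 FPKM in FBS (3.85, adjusted p = 0.000382), and measured 4.31 without replicate 1. Of 4 osteoblast genes 1 was higher and 1 lower (2 and 1 without replicate 1), and Runx2, the osteoblast factor, did not pass at 4.55 to 5.64 FPKM in SSt and 3.84 to 5.83 FPKM in FBS (0.02, adjusted p = 0.922). Of 6 chondrocyte genes 2 were higher and 1, Acan (aggrecan), lower (-3.13, adjusted p = 5.71e-05), and 4 and 1 without replicate 1. The stretch-activated channel Piezo1 did not pass (0.20, adjusted p = 0.252).

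Energy and stress genes were mixed, and glycolysis again depended on replicate 1. Of 22 glycolysis genes 8 were lower and 2 higher with it, and 15 lower and 2 higher without it. With it 29.5% of all tested genes were lower and 30.3% higher. Ldha, lactate dehydrogenase, was at 1460.0 to 1633 FPKM in SSt and at 829.7, 623 and 556 FPKM in FBS (-1.13, SE 0.148, adjusted p = 0.000206). Slc16a3, the lactate exporter, was called lower only without it (-1.53, adjusted p = 7.05e-06), and its fold was under 2 with it (-0.99, adjusted p = 0.0205). Of 25 ATF4 and amino acid response genes 14 were higher and 3 lower (15 and 3 without replicate 1). The cystine importer Slc7a11, also a target of NRF2, was at 6.24 to 6.90 FPKM in SSt and at 75.2, 46.0 and 35.9 FPKM in FBS (3.04, SE 0.263, adjusted p = 1.78e-05). Of 20 genes of the ER and unfolded protein response 11 were lower and 5 higher (13 and 5 without replicate 1), with the chaperone Hsp90b1 among the lower (-0.69, adjusted p = 1.52e-05).

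**Figure D3:**
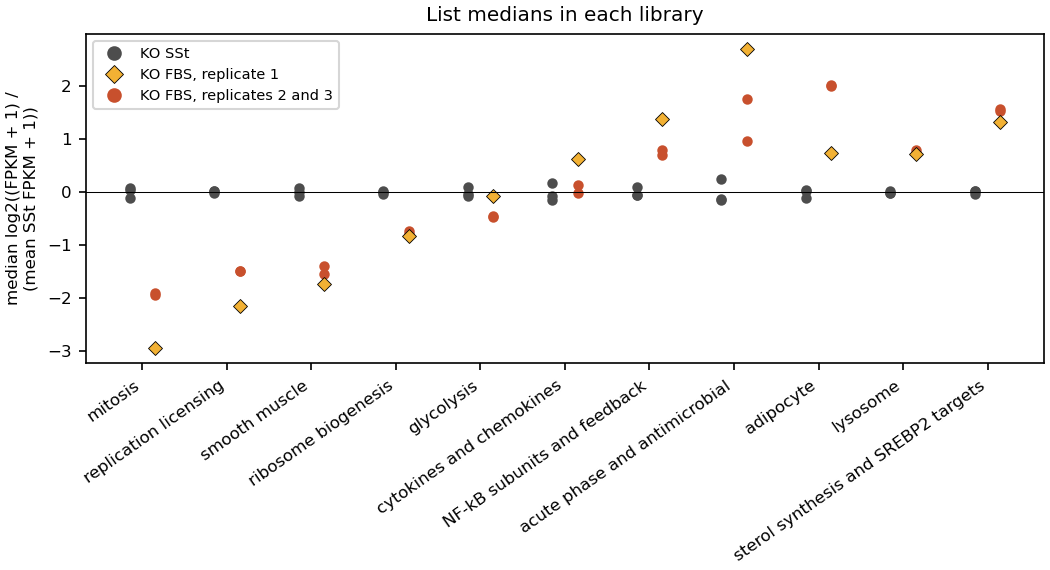
Median over the tested members of a list of log2((FPKM + 1) / (mean SSt FPKM + 1)), for each KO library, with SSt in grey, FBS in red and FBS replicate 1 as a diamond. The diamond lies below the other FBS libraries for mitosis (-2.95 against -1.95 and -1.90), above them for the NF-kB list (1.38 against 0.80 and 0.70) and with them for lysosome genes.

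FBS replicate 1 thus differed by programme. Its mitosis and adipocyte medians were below those of the other FBS libraries, its NF-kB, cytokine and acute phase medians above, while its medians for lysosome (0.71 against 0.79 and 0.75) and ribosome biogenesis genes (-0.83 against -0.74 and -0.80) lay near theirs. The genes farthest above the other two FBS libraries in it included Serpinb2, Nos2, Il1b and Il1a. Another was Cxcl2, a chemokine of neutrophils, at 43.7, 30.5 and 24.5 FPKM in SSt and at 196, 26.4 and 13.2 FPKM in FBS, which passed neither with it (1.34, adjusted p = 0.229) nor without it (-0.69, adjusted p = 0.253). Of the calls, 221 were made only with replicate 1 and 160 only without it. Tnf, the cytokine, was at 2.57, 2.79 and 1.27 FPKM in SSt and at 23.6, 5.25 and 6.24 FPKM in FBS and was called with it (2.48, adjusted p = 0.0457) and not without it (1.42, adjusted p = 0.176), nor with any 1 SSt library left out (adjusted p = 0.0873 to 0.13).

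The response to FBS was then compared between genotypes, as the KO difference minus the WT difference in a fit of all 18 libraries and 13317 genes. Levels of the 2 genotypes come from 2 tables. Past the same limits 1195 genes differed (8.97%), 710 with the higher value in KO (5.33%) and 485 with the lower (3.64%). Without FBS replicate 1 of KO 939 did (7.05%), 589 higher (4.42%) and 350 lower (2.63%). Whatever the fold, 35.7% of genes passed the adjusted p, and 31.9% without that library.

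Several inflammatory genes went in opposite directions in the 2 genotypes. Nos2 was at 401 to 448 FPKM in WT SSt and 4.07 to 4.96 FPKM in WT FBS, so that it was lower in FBS in WT and higher in KO. The difference of the responses was 11.46 (SE 1.34, adjusted p = 1.94e-05), and without replicate 1 it was 8.98 (SE 0.610, adjusted p = 1.14e-07). Il1b was at 837 to 1003 FPKM in WT SSt and 17.6 to 19.2 FPKM in WT FBS, a difference of 8.47 (SE 1.02, adjusted p = 2.55e-05) that was 6.76 (SE 0.565, adjusted p = 6.70e-07) without it. In KO alone the rise of Il1b did not pass without replicate 1 (1.07, adjusted p = 0.0731). Lcn2 (7.93, and 7.04 without it), Ccl3 (7.33 and 6.06), Mmp13 (6.40 and 5.19) and Slc7a11 (4.44 and 4.05) also differed past the limits in both fits, all with lower FPKM in WT FBS than in WT SSt. In the cytokine list 28 of 36 genes had the higher response in KO and 2 the lower at the adjusted p (background 18.5% and 17.2%), and 24 and 2 without replicate 1. For NF-kB genes these were 17 and 0 of 20.

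Levels of the genotypes differed in both conditions, most in SSt for Nos2. Nos2 was lower in KO SSt (2.72 to 4.68 FPKM) than in WT SSt (401 to 448 FPKM), and higher in KO FBS (11.8 to 239 FPKM) than in WT FBS (4.07 to 4.96 FPKM). A constant difference between the genotypes cancels in the test of the responses.

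The lowering of cell cycle genes, as a ratio of FBS to SSt, was larger in KO. The median log2 ratio of FPKM was -0.88, -0.62 and -0.79 in WT for the licensing, DNA synthesis and mitosis lists, and -1.70, -1.43 and -2.20 in KO. Of the 71 genes 64 had the lower response in KO at the adjusted p, 34 at a fold of 2, and 61 passed without replicate 1. Mki67 was at 24.2 to 26.1 FPKM in WT SSt and 21.2 to 22.7 FPKM in WT FBS, and the KO response differed by -1.48 (SE 0.393, adjusted p = 0.00852), and without replicate 1 by -1.12 (SE 0.165, adjusted p = 0.000108). Levels of the genotypes differed in SSt as well as in FBS. Cdk1 was at 88.9 to 92.6 FPKM in KO SSt and 47.85 to 48.8 FPKM in WT SSt. In FBS it was at 7.43, 15.1 and 18.7 FPKM in KO and 19.4 to 20.5 FPKM in WT. Mki67 was likewise higher in KO SSt (37.3 to 44.7 FPKM) and lower in KO FBS (5.06 to 17.1 FPKM) than in WT. For 22 glycolysis genes 18 had the higher response in KO and none the lower.

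Other leading genes showed no difference that passed. Rgs16 differed by 0.27 (SE 0.360, adjusted p = 0.598), Nrn1 by 0.38 (SE 0.226, adjusted p = 0.218) and Id1 by 0.11 (SE 0.241, adjusted p = 0.757). Irs1 was at 2.84 to 2.90 FPKM in WT SSt and 2.19 to 2.27 FPKM in WT FBS, and its response differed by -0.07 (SE 0.146, adjusted p = 0.744). Of 25 sterol genes 3 had the higher and 6 the lower response in KO, none at a fold of 2. A p that misses the limit does not show that the responses were equal.

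**Figure D4:**
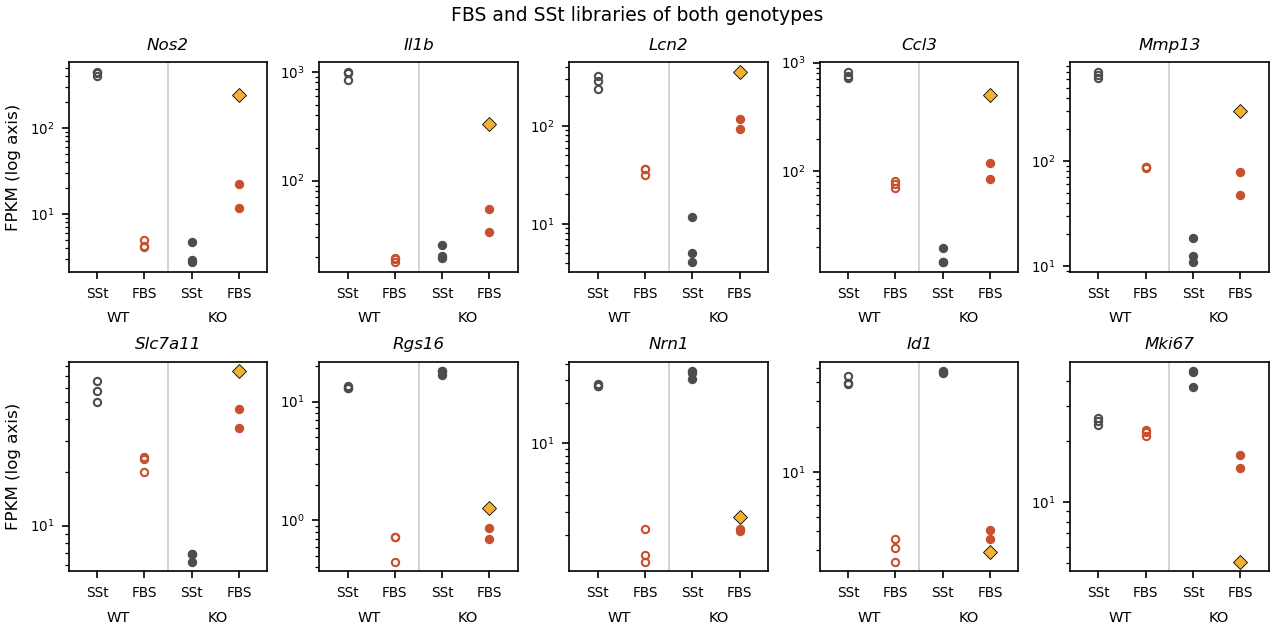
FPKM on a log axis in the SSt and FBS libraries of WT (open circles) and KO (filled circles), with KO FBS replicate 1 as a diamond, for 10 genes. Nos2, Il1b, Lcn2, Ccl3, Mmp13 and Slc7a11 are lower in FBS in WT and higher in FBS in KO, while Rgs16, Nrn1 and Id1 move the same way in both. The rise of Il1b in KO did not pass without KO FBS replicate 1 (edgeR adjusted p = 0.0731).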

How the data were processed

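The authors deposited 1 table per genotype, with whole-number counts per gene, not normalized, and FPKM, scaled by the authors to length and library total. Processing notes by the submitters list the aligner Bowtie 0.12.2 and, as genome, mm10 of the mouse, whereas gene identifiers are rat ones, so no file coordinates were used. Neither the counter nor the strand setting is given in these sources. Genes reaching 1 FPKM in 3 or more of 9 KO libraries (of 18 for the difference between genotypes) were tested on the counts with edgeR 4.0.16 in R 4.3.3 (TMM, quasi-likelihood F test, Benjamini-Hochberg over all genes tested), checked on simulated data. The SE is the log2 fold change divided by the root of F. Called means an adjusted p below 0.05 with a change of 2-fold or more. CMS libraries shared the fit. Of 1035 entries in 51 gene lists 999 matched 1 identifier by name. Counts of members are at the adjusted p, whatever the fold, unless a fold of 2 is stated. Members, lists and limits were chosen with earlier results of these data known.

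Named genes follow a rule, though not every gene it gives is named: among called genes averaging 5 FPKM or more, the 12 with the highest and the 12 with the lowest fold change and no overlap between groups, the 4 most abundant and 4 most changed called members of each list, genes the study turns on, and the 10 most apart in, or called differently without, FBS replicate 1. P2rx5, Llgl2 and the markers at 0 stand outside it. Results on some genes are not reported here. Alternatives were DESeq2 1.42.0, limma 3.58.1 on log2(FPKM + 1) or log2(FPKM + 0.1), other scalings, filters and limits, a replicate block, and each library left out. Sequences are RefSeq's on GRCr8. Precision rests on 3 libraries per group at 56.08 to 64.42 M counts.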

Additional observations from a re-analysis of the deposited data

Results flagged for a closer look

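By a test of the difference itself (edgeR, KO response minus WT response), 1195 genes answered differently to FBS in the 2 genotypes, and the leading and study genes among them are given here as log2 differences. The difference was above 0 for Nos2 (11.46), Serpinb2 (10.86) and Lcn2 (7.93), which were lower in FBS in WT and higher in KO. It was also above 0 for Pla2g2a (4.77), Enpp2, which makes lysophosphatidic acid (4.10), Chi3l1, a chitinase-like protein (3.51), Cpxm1, a carboxypeptidase-like protein (3.29), and Cx3cl1 (1.55), whose FPKM were higher in FBS in both genotypes. Itga8 (2.35), Klhl41, a muscle protein (1.38), and Lmcd1 (1.37) had lower FPKM in FBS in both, by less in KO. For Mki67 (-1.48) the lowering was larger in KO. The cause was not tested. With 3 libraries per group, no formal test for a library far from its group was run. Without KO FBS replicate 1 the differences were 8.98 for Nos2, 8.15 for Serpinb2, 7.04 for Lcn2, 3.04 for Enpp2 and 2.53 for Chi3l1, and 939 genes were called.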

How the results depend on the processing

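Counts of called genes stayed within 1.5 times under all alternatives but these. With limma on log2(FPKM + 1) 742 genes were called higher, and with a filter of 5 FPKM 656 were called lower, where fewer genes were tested. With no limit on the fold 3904 were higher and 3802 lower, and 4753 differed between genotypes. Leaving out 1 library gave 1168 to 1212 higher, 957 to 1014 lower and 939 to 1399 for the difference between genotypes. Among named genes only values that did not pass changed sign. With 1 library left out Runx2 ranged from -0.12 to 0.15, Col1a1 from -0.01 to 0.28 and Cxcl2 from -0.69 to 1.85. Runx2 was also below 0 with scaling by library totals (-0.03), with limma (-0.04 and -0.05) and with no filter (-0.01). Cxcl2 measured -0.70 without both FBS replicate 1 and the CMS libraries, an alternative chosen after seeing the data. The cause was not tested. Of 14 to 16 alternatives per gene, Akt2, Tnf and Gm47305 lost the adjusted p under 8 each, Il1b under 7, Serpinb2 and Slc16a3 under 3 each, and Irs1 under 2, one of them without SSt replicate 2 (-0.39, adjusted p = 0.0558 by edgeR). Ccn2 and Ptgs2 gained it under 4 each, Il1a under 2 and Col1a1 under 1.

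The main fit did not pair libraries by replicate number. Deviations of same-numbered SSt and FBS libraries correlated at 0.173, -0.094 and 0.043, and those of other-numbered ones at -0.198 to 0.250. With 3 libraries per group these values cannot decide whether the numbers pair the samples. With a replicate block 1191 genes were called higher and 992 lower, 1176 differed between genotypes, and Il1b (2.39, edgeR adjusted p = 0.0683), Tnf (2.41, adjusted p = 0.104) and Serpinb2 (3.90, adjusted p = 0.0506) did not pass.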

Other observations

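Genes of the circadian clock were more often higher than lower in KO FBS, with 9 of 16 clock genes higher and 1 lower at the adjusted p of edgeR (9 and 2 without FBS replicate 1). Bhlhe41, a repressor of the clock, was at 4.01 to 6.68 FPKM in SSt and 22 to 30.6 FPKM in FBS (2.32, adjusted p = 9.74e-06), and the output factors Dbp (1.28) and Tef (1.33) were called. Wnt genes were split, with 5 of 16 higher and 8 lower in both fits, beside 30.3% and 29.5% of all tested genes. The secreted antagonists Frzb (5.20) and Sfrp1 (2.89) were called higher, and the ligand Wnt5a (-1.84) and the feedback target Axin2 (-1.86) lower. Axin2 was at 3.28 to 3.68 FPKM in SSt and 0.771 to 1.02 FPKM in FBS.

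Of 12 genes of the BCL2 family 5 were higher and 3 lower (6 and 3 without FBS replicate 1). The anti-apoptotic Bcl2 (1.18) and the pro-apoptotic Bcl2l11 (1.16) were both higher and Bok (-3.13) lower. Of 19 p53 targets 10 were higher and 2 lower (11 and 3 without replicate 1), with Tp53inp1 (2.06) and Gadd45a (1.68) called. Of 19 genes of the NRF2 and antioxidant list 10 were higher and 2 lower (11 and 2 without replicate 1). At a fold of 2, 6 were higher with replicate 1 and 4 without it. The ferritin chain Fth1 (1.67, adjusted p = 7.32e-06) and heme oxygenase Hmox1 (1.13, adjusted p = 0.000703) were among the higher. Hmox1 was at 215 to 229 FPKM in SSt and at 620, 404 and 369 FPKM in FBS, with replicate 1 the highest. Of 13 glucocorticoid targets 6 were higher and 4 lower (6 and 5 without replicate 1), with Sgk1 (1.35) higher and the metallothionein Mt1 (-1.89) lower. The background for these lists was 30.3% higher and 29.5% lower.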
